A study of Bos taurus with 20 samples.

Results

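The classical complement genes of this study are C1R and C4A, together with SERPING1, which encodes the C1 inhibitor. They were taken from the array's gene table as every clone with one of these symbols and no other. That gave 5 of 3072 spotted clones and 3 of 148 genes with a symbol. C1R had 2 clones on the 18KB array, C4A had 1 clone there, and SERPING1 had 1 clone on each of the 18KB and 18KO arrays. By entrez identifier, RefSeq's genes of ARS-UCD2.0 list all 3 under the same symbols as protein-coding.

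Complement is a cascade of plasma and tissue proteins that marks targets for uptake and lysis. In the classical pathway the recognition protein C1q carries the protease proenzymes C1r and C1s. C1r activates itself and then cleaves C1s, which cleaves complement component C4, so that part of C4 binds covalently to the nearby surface and helps to build the enzyme that activates C3. The C1 inhibitor, a serpin, binds active C1r and C1s and also restrains kallikrein of the contact system. The liver supplies most of these proteins, but epithelial cells, fibroblasts and macrophages make them locally, and interferons raise their transcripts in human cells.

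Endometrium came from 4 pregnant heifers, inseminated with sperm and aged 17 to 20 months, and from 6 control heifers, given the supernatant of centrifuged semen in its place and aged 18 to 22 months. All were Simmental heifers (Deutsches Fleckvieh) whose cycle had been synchronised with cloprostenol and which were slaughtered on day 18, of pregnancy or of the oestrous cycle. The tissue was intercaruncular endometrium from the caudal part of the ipsilateral uterine horn. The conceptus of pregnant animals had been found and removed, and none was found in controls. Each RNA was labelled radioactively and hybridised to both arrays, of which 18KB holds a subtracted library of transcripts raised in pregnancy and 18KO the opposite subtraction. Arrays are named here by the animal's number, each is 1 animal, and the number of arrays limits the precision.

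Column medians of spot intensity ran from 2.50 to 3.18 in pregnant and from 1.39 to 1.90 in control animals on the 18KB array, and from 1.67 to 2.36 in pregnant and from 2.03 to 3.90 in control animals on the 18KO array. The scale of the columns was therefore tested separately below. The 18KO array of pregnant 316 was hybridised later than the others, together with 2 other samples, and was placed by its ratios to them, per the labels. Clones had been sequenced chiefly because they differed between these same animals, so the tests below are not independent evidence of a direction.

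All 3 genes had higher transcript levels in pregnant than in control endometrium, on every clone and with no overlap between the groups. All pregnant animals lay above all controls for 26.7% of all clones of the 18KB array and for 4.17% of those of the 18KO array. C4A was 6.28-fold higher, C1R 3.28-fold over its 2 clones, and SERPING1 3.12-fold on the 18KB array and 5.53-fold on the 18KO array. With columns set to equal medians or quantile-normalised, C1R and SERPING1 on the 18KB array fell under the 2-fold limit for a call. Their log2 changes were 0.88 and 0.81 at equal medians. C4A kept its call. These scalings raised the change of SERPING1 on the 18KO array, so its call there was not put to a test by them. In bulk tissue, more cells of a type and more RNA per cell cannot be told apart.

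The C1R clone 18KB-07-E02 had intensities of 3.72, 3.27, 4.98 and 2.81 in pregnant animals 316, 426, 447 and 448. In controls 330, 404, 427, 434, 440 and 449 it had 1.34, 1.5, 0.87, 1.05, 0.99 and 1.08. The lowest pregnant animal thus lay 1.87-fold above the highest control. The second C1R clone, 18KB-10-F08, had 2.76, 6.15, 7.36 and 3.81 in the pregnant animals in the same order. In the controls it had 1.02, 1.74, 1.18, 2.01, 1.46 and 1.22. The groups did not overlap here either, but their nearest values were 1.37-fold apart, the smallest gap of the 5 clones.

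The log2 change of C1R, the protease that starts the cascade, was 1.69 ± 0.21 (SE) for the first clone and 1.74 ± 0.30 for the second. Their changes differed by 0.05 (two-sided exact permutation p = 0.890, over 210 splits of the animals), a comparison chosen after seeing the values. The ranking of the animals did differ between the clones. Pregnant 316 was second highest by the first clone and lowest of the pregnant animals by the second. As a gene, C1R had a log2 change of 1.71 ± 0.22 (limma adjusted p = 0.000127).

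The C4A clone, 18KB-15-A09, had intensities of 18.64, 52.31, 49.48 and 20.78 in pregnant animals 316, 426, 447 and 448. In controls 330, 404, 427, 434, 440 and 449 it had 6.12, 7.85, 4.88, 5.27, 3.83 and 3.46. The pregnant animals fell into a pair near 50 and a pair near 20, and the lowest of them lay 2.37-fold above the highest control. C4A, the component that attaches to surfaces after cleavage, changed by 2.65 ± 0.34 on the log2 scale (limma adjusted p = 0.000146), with a 95% interval from 1.90 to 3.4.

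Pregnant 426 and 447, the animals with most C4A signal, also had the highest column medians, 3.05 and 3.18. Their 18KB columns, and that of control 427, held 0 values at or below 0.01, against 9 to 16 in the other columns. Relative to the column median, C4A was 17.2 and 15.6 in these animals and 7.47 and 7.67 in pregnant 316 and 448, against 2.50 to 4.73 in controls. With a term for these 3 columns, chosen after seeing the data, the log2 change was 2.41 for C4A, 1.65 for C1R and 1.54 for SERPING1, and each was still called.

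The SERPING1 clone of the 18KB array, 18KB-06-D06, had intensities of 10.30, 17.38, 18.51 and 15.76 in the pregnant animals in the same order. The controls lay close together at 4.85, 4.88, 5.13, 5.26, 4.52 and 4.44. The SD of its log2 level was 0.38 (n = 4) in pregnant animals and 0.10 (n = 6) in controls, where the other clones had SDs of 0.29 to 0.43. The clone of the 18KO array, 18KO-12-F01, had 16.55, 20.70, 15.20 and 10.47 in the pregnant animals. Its control values were 3.41, 2.41, 2.38, 3.83, 2.03 and 2.94, so its nearest values were 2.73-fold apart, the widest gap of the 5 clones.

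SERPING1, the brake on C1r and C1s, had a log2 change of 1.64 ± 0.18 on the 18KB array (limma adjusted p = 7.61e-05) and of 2.47 ± 0.27 on the 18KO array (limma adjusted p = 3.32e-05). Without pregnant 316, whose 18KO array was the later one, the change on that array was 2.43 (limma adjusted p = 0.000276). For each of the 4 values of a gene on an array the two-sided exact permutation p was 0.00476, the smallest that 210 splits can give.

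**Figure D1:**
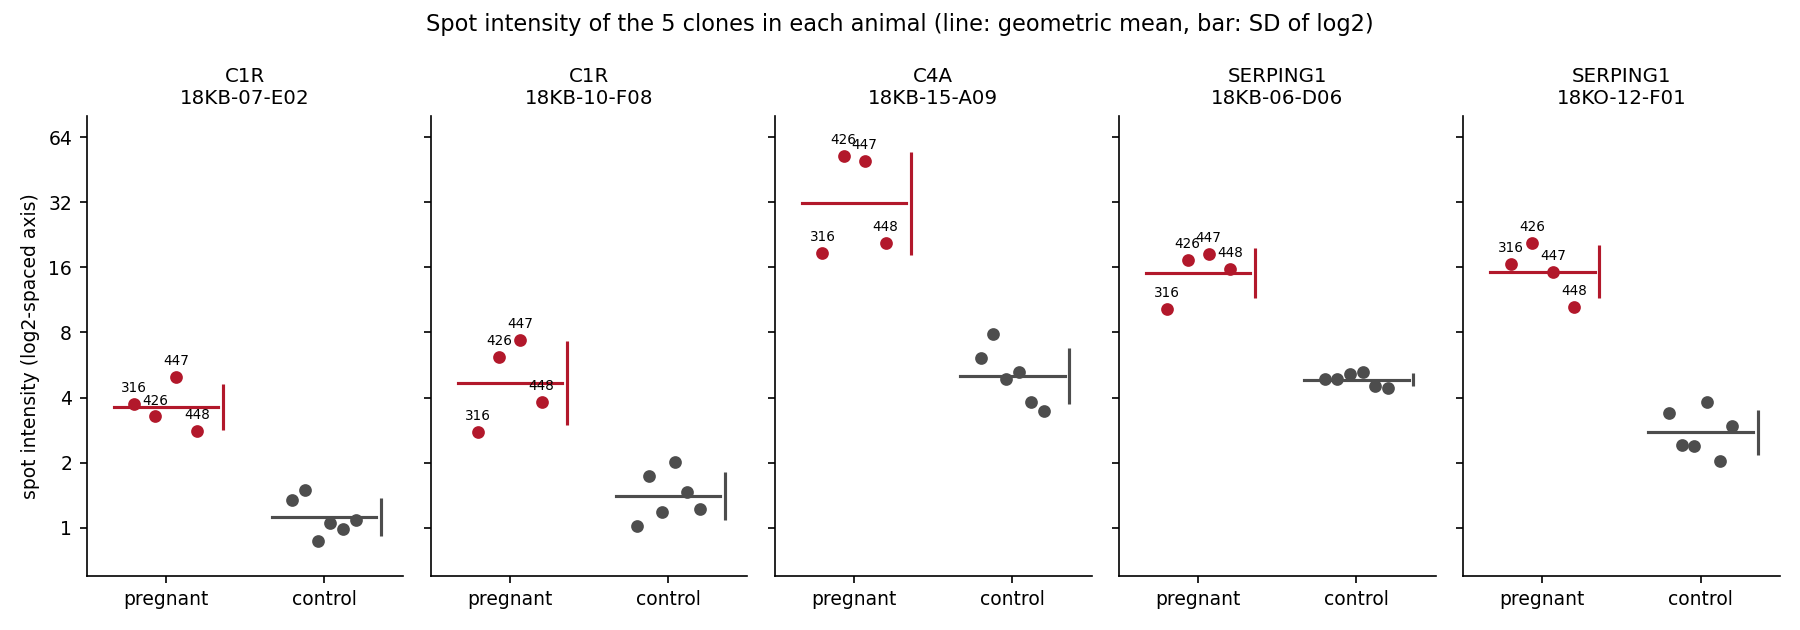
Spot intensity, on a log2-spaced axis, of the 2 C1R clones, the C4A clone and the 2 SERPING1 clones in 4 pregnant (red) and 6 control (grey) animals. Points are animals, lines geometric means and bars the SD of log2 values. In each panel every pregnant animal lies above every control, and the C4A panel shows pregnant 426 and 447 near 50 and 316 and 448 near 20.

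On the 18KB array 4 of 4 clones of these genes were called higher, at an adjusted p under 0.01 and at least a 2-fold change. Of all 1536 clones there, 21.2% were called, with 20.5% higher (315) and 0.716% lower (11). The share called higher was 77.9% among the 86 genes with a symbol and 11.6% among clones without a single symbol. On the 18KO array the 1 clone was called higher, where 1.17% of all clones were (18) and 4.17% of the 72 genes with a symbol. In all 7.49% of its clones were called, most of them lower (97, or 6.32%). That total of 115 called clones became 76, 65 and 58 without pregnant 316, 426 and 448. By size of change C4A ranked 110th, the C1R clones 212th and 225th and SERPING1 232nd of the 1536 clones of the 18KB array, while SERPING1 ranked 8th of the 1536 on the 18KO array. SERPING1 was thus among the largest rises on the array whose library was enriched for transcripts of controls.

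**Figure D2:**
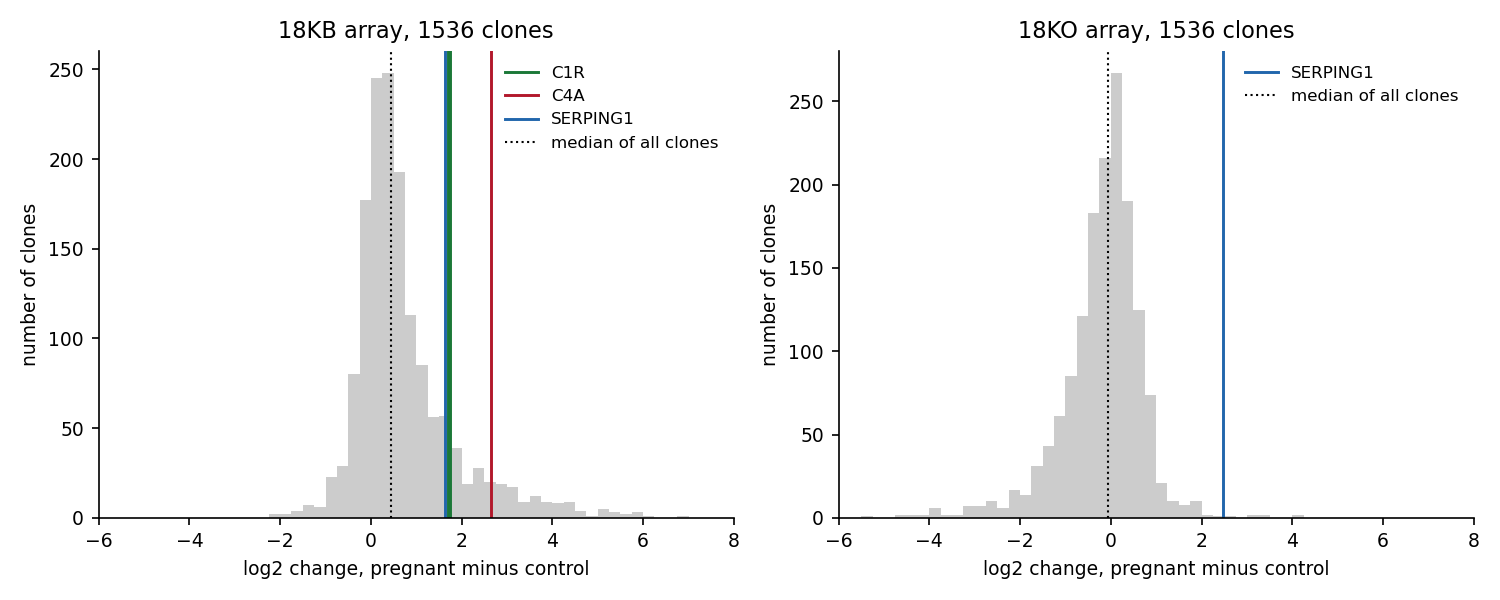
Histograms of the log2 change (pregnant minus control) of all 1536 clones of the 18KB and the 18KO array, with coloured lines at the clones of C1R, C4A and SERPING1 and a dotted line at the median. On the 18KB array the 4 clones stand at 1.64 to 2.65 against a median of 0.44, and on the 18KO array SERPING1 stands at 2.47 against -0.06.

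The median log2 change of all clones was 0.44 on the 18KB array and -0.06 on the 18KO array. Above these medians the changes were 2.21 for C4A, 1.28 for C1R, 1.21 for SERPING1 on the 18KB array and 2.53 for SERPING1 on the 18KO array. When column medians were set equal, the median of all clones on the 18KB array moved to -0.39 and its called clones split into 152 higher and 174 lower. On the 18KO array it moved to 0.27, with 82 higher and 93 lower. Quantile normalisation gave 178 higher and 139 lower on the 18KB and 53 higher and 104 lower on the 18KO array.

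All 4 changes stayed positive under each of these scalings. C4A was called under each, with 1.82 ± 0.29 at equal medians and 1.99 after quantile normalisation. SERPING1 on the 18KO array was called too, but both scalings raised its change, to 2.80 and 2.69. Equal medians lower the change of every clone without values at or below 0.01 on the 18KB array, and raise it on the 18KO array. The libraries were enriched in opposite directions, so equal medians need not hold for either. With 1 factor per animal for both arrays, SERPING1 on the 18KO array had 2.22 ± 0.24 and was called. C1R had 0.88 ± 0.20 at equal medians (limma adjusted p = 0.00407) and SERPING1 on the 18KB array 0.81 ± 0.15 (limma adjusted p = 0.00117), both under the 2-fold limit, so their calls were lost. The same held after quantile normalisation, at 0.93 and 0.87. Over all alternatives tried, the adjusted p ran from 1.31e-05 to 0.00486 for C1R and from 4.32e-06 to 0.00185 for SERPING1 on the 18KB array.

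**Figure D3:**
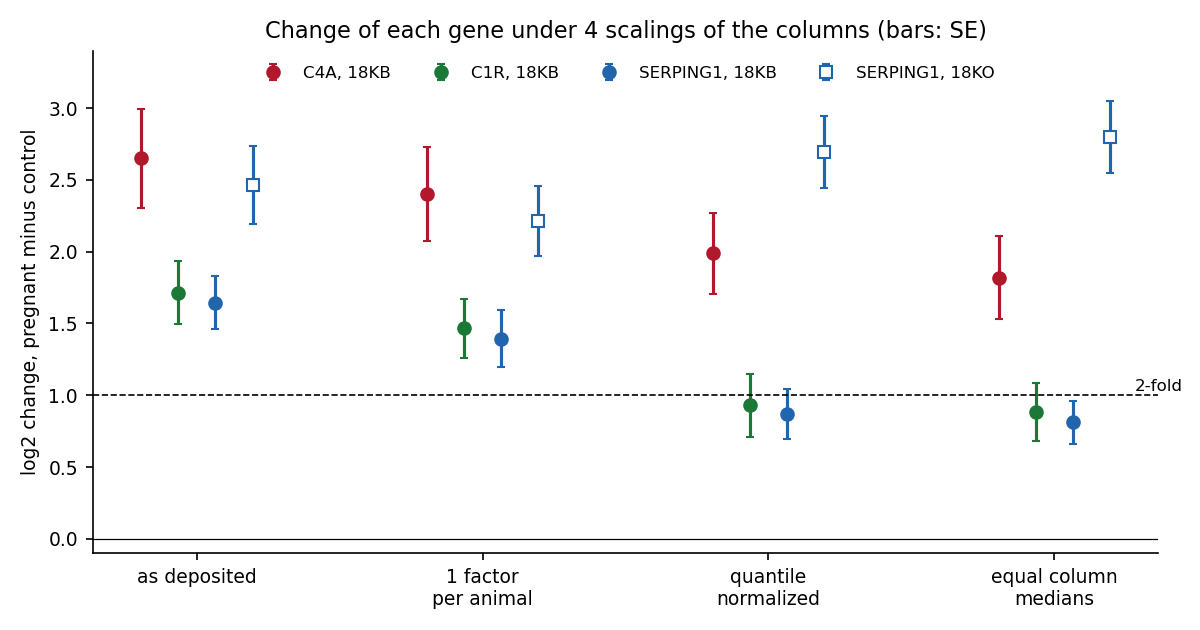
Log2 change (pregnant minus control, with SE bars) of C4A, C1R and SERPING1 on the 18KB array and of SERPING1 on the 18KO array (open squares) under 4 scalings of the columns. The dashed line is a 2-fold change. C1R and SERPING1 on the 18KB array lie below it after quantile normalisation and at equal column medians, while the other changes lie above it under each scaling.

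On the 18KB array C4A had the largest log2 change of the 3 genes, 2.65, against 1.71 for C1R and 1.64 for SERPING1. The difference between 2 genes in the same column does not depend on any single factor by which that column was scaled. Quantile normalisation is no such factor, and neither is a background added to the spots. The genes were therefore compared in pairs within each animal. With the control mean set to 0, the log2 level of C4A minus that of C1R was 0.53, 1.53, 1.02 and 0.66 in pregnant 316, 426, 447 and 448. It ran from -0.42 to 0.38 in controls, below all pregnant animals. C4A thus changed 1.91-fold more than C1R (log2 0.94, two-sided exact permutation p = 0.00476, 0.0143 after adjustment over 3 pairs).

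The log2 level of C4A minus that of SERPING1 was 0.80, 1.53, 1.36 and 0.34 in the same pregnant animals. It ran from -0.42 to 0.63 in controls, so that pregnant 448 lay inside the control range. The change of C4A exceeded that of SERPING1 2.01-fold (log2 1.01, two-sided exact permutation p = 0.0143, 0.0214 adjusted over the 3 pairs). C1R minus SERPING1 was -0.32 to 0.34 in pregnant and -0.39 to 0.36 in control animals, a difference of 0.07 (two-sided exact permutation p = 0.695). Both C4A contrasts missed 0.05 without pregnant 426, with log2 differences of 0.74 against C1R and 0.83 against SERPING1 (exact permutation p adjusted over 3 pairs = 0.0536 for each). The step from these genes to C4A thus rests in part on that animal. C4A and SERPING1 had 1 clone each on this array, so a difference between genes cannot be told apart from one between clones. The SERPING1 clone of the 18KO array changed by 2.47 ± 0.27, against 2.65 ± 0.34 for C4A.

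**Figure D4:**
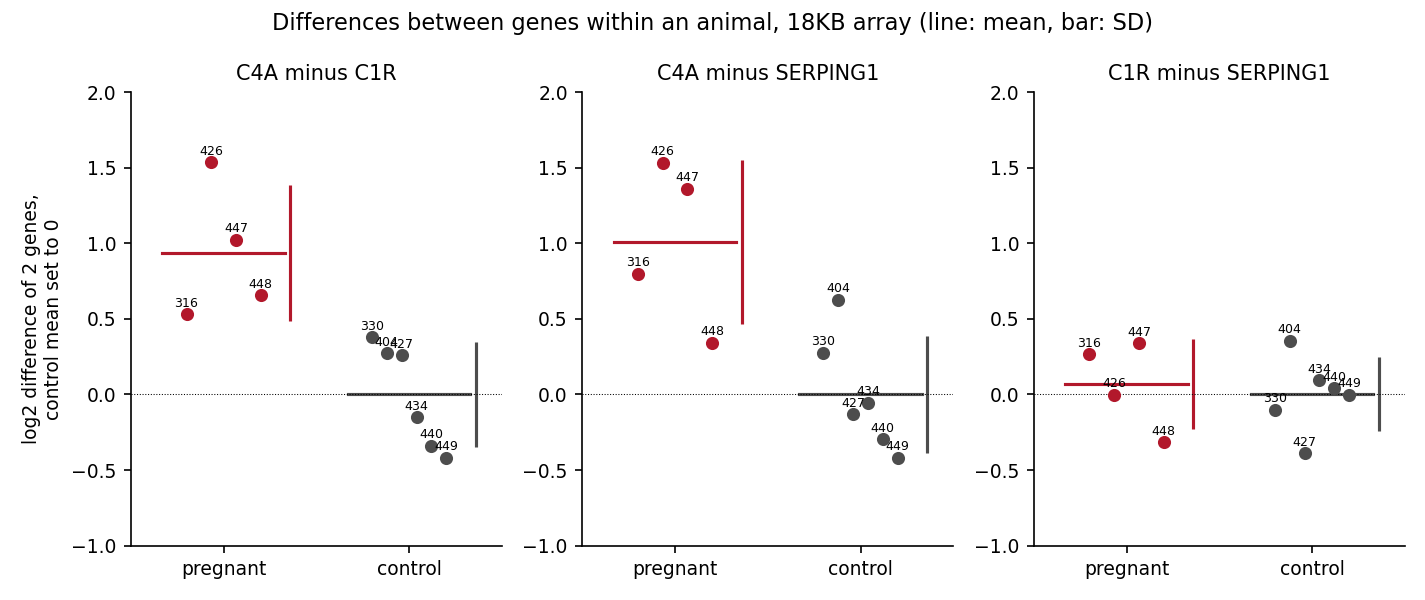
Log2 difference between 2 genes in the same 18KB column, with the control mean set to 0, for C4A minus C1R, C4A minus SERPING1 and C1R minus SERPING1 in pregnant (red) and control (grey) animals. Points are animals, lines means and bars SDs. Pregnant animals lie above all controls in the first panel, overlap them in 1 animal (448) in the second, and share the control range in the third.

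SERPING1 was the only one of the 3 genes with a clone on both arrays, so its change was measured on both in the same animals. Relative to the control mean of each array, its log2 level on the 18KB array was 1.09, 1.85, 1.94 and 1.70 in pregnant 316, 426, 447 and 448. On the 18KO array the same animals had 2.58, 2.90, 2.46 and 1.92. Each pregnant animal had the larger value on the 18KO array, and pregnant 316 differed most between the arrays.

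The change of SERPING1 was 0.82 ± 0.35 larger on the 18KO than on the 18KB array on the log2 scale, which did not pass the test (limma adjusted p = 0.282 over the 10 genes on both arrays). The animal was then taken as a block, as both arrays carry RNA of the same animals. The block used 1 correlation between arrays, 0.68 over the 10 genes, although SERPING1 ranked the pregnant animals differently on each array. The difference with the block was 0.82 ± 0.26 (limma adjusted p = 0.0354). That call was lost without pregnant 316 (0.60, adjusted p = 0.245), 426 (0.74, adjusted p = 0.149) or control 404 (0.78, adjusted p = 0.140), 427 (0.76, adjusted p = 0.0968) or 440 (0.75, adjusted p = 0.141). The other 9 genes on both arrays had differences between arrays from -0.58 to 0.20, none with an adjusted p under 0.05 in either fit. Taken alone, the within-animal difference had an exact permutation p of 0.0143 (two-sided). At equal column medians the difference between arrays was 1.98 (limma adjusted p = 2.46e-05). That scaling shifts this difference by the same amount for every shared gene without values at the floor. The increase from 0.82 to 1.98 is therefore not particular to SERPING1.

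**Figure D5:**
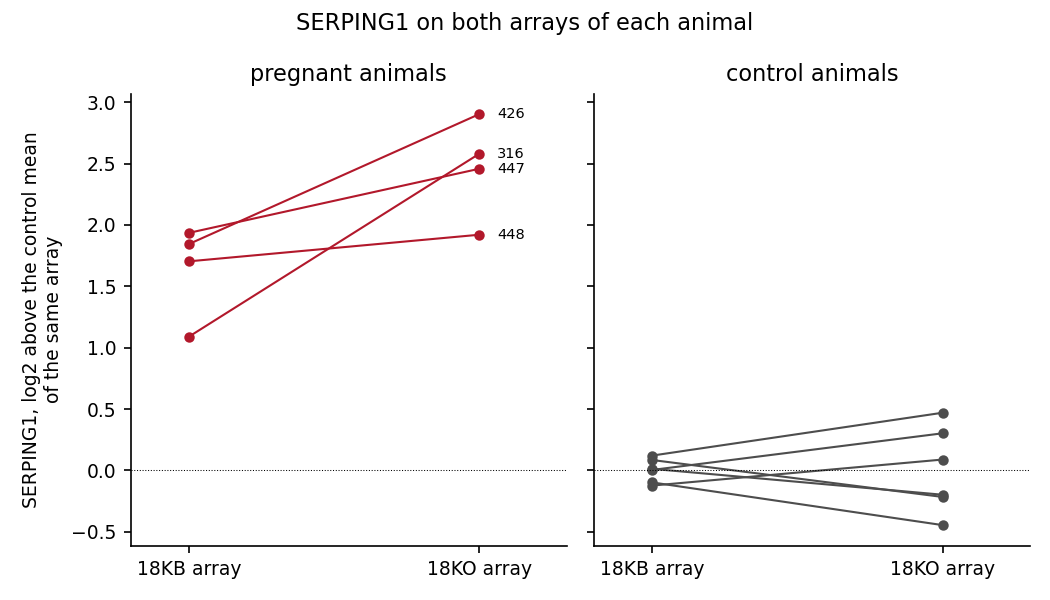
SERPING1 on the 18KB and on the 18KO array, as the log2 level above the control mean of the same array, with a line for each of 4 pregnant (red) and 6 control (grey) animals. In pregnant animals the values are 1.09 to 1.94 on the 18KB and 1.92 to 2.90 on the 18KO array, and all 4 lines rise.

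Of the 40 genes on the complement list, these 3 were the only ones with a symbol of their own on the arrays. None of the other 37, among them C1S, C2, C3, CFB and the membrane regulators CD46, CD55 and CD59, was named on the 18KB or the 18KO array (0 on each), and they are not analysed here. In the gene order of ARS-UCD2.0, C1S directly follows C1R, and UBE2L6, an enzyme for ISG15 conjugation, directly precedes SERPING1. The 5 clones are double-stranded cDNA, so transcripts of either strand and of near-identical gene copies bind them alike. The C1R signal may include LOC112446757, a long non-coding RNA that overlaps C1R, and the C4A signal the transcribed pseudogene CYP21A1P, which overlaps C4A, and any further C4 copy.

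One neighbour was on the array. LOC781663, which lies 2 places before C4A in the gene order, had intensities of 3.80, 13.29, 7.10 and 4.96 in pregnant 316, 426, 447 and 448. In controls it had 1.01 to 2.13, below all pregnant animals. It was 5.06-fold higher in pregnant animals (log2 2.34 ± 0.34, limma adjusted p = 0.000370). It was picked for its place after the values were seen, and no function is given for it in the tables used here.

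On the 18KB array, animals that were high in 1 of the genes for their group tended to be high in the others. Likeness was measured as the Pearson correlation of log2 levels over the deviations of 10 animals from their own group mean, which leaves out the difference between the groups. It was 0.80 between C1R and C4A, 0.72 between C4A and SERPING1 and 0.61 between C1R and SERPING1 on the 18KB array. Genes of 1 column share its brightness, and at equal column medians the values were 0.61, 0.38 and 0.51 in the same order. Over the 83 other genes the median correlation was 0.22 with C1R, 0.43 with C4A and 0.38 with SERPING1, and at equal column medians it was -0.02, 0.16 and -0.02. Among named genes C4A ranked 1st for C1R, but SERPING1 ranked 10th for C1R and C1R 12th for SERPING1. Such deviations were not always repeated for the same gene. By SERPING1, pregnant 316 was lowest of the pregnant animals on the 18KB array, but above 447 and 448 on the 18KO array.

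Among those 83 genes C1R was most like TGM2, an enzyme that cross-links proteins (correlation 0.76), SELENOP, a selenium transport protein (0.70), LOC781663 (0.68), CSRNP1 (0.66) and SHFL, an interferon-induced inhibitor of viruses (0.63). C4A was most like TGM2 (0.85), SHISA5 (0.80), CRY2, a circadian repressor (0.80), SAT1, an enzyme of polyamine breakdown (0.79), and SCP2, a sterol carrier (0.78). Apart from CSRNP1 (log2 change -0.40 ± 0.49), all of these were called higher in pregnant animals, with log2 changes of 1.29 for SCP2 and SAT1 to 2.34 for LOC781663. For both genes 4 of the 5 stayed among the 5 most alike at equal column medians, with TGM2 first.

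SERPING1 on the 18KB array was most like TAP1, a subunit of the peptide transporter of antigen presentation (correlation 0.85, and 0.68 at equal column medians, first in both). DKK1 (0.71), LGALS3BP (0.70), SHISA5 (0.68) and TUBB4B (0.68) followed, none of which stayed among the 5 at equal medians. There LOC781663 (0.62), the trophoblast marker IFNT2 (0.60), LY6E (0.59) and the trophoblast marker TKDP1 (0.57) took their places. TAP1 rose by 1.81 ± 0.18, DKK1 by 3.37 ± 0.38, LGALS3BP by 1.61 ± 0.31 and SHISA5 by 1.64 ± 0.26, while TUBB4B fell (-1.16 ± 0.19). On the 18KO array SERPING1 was most like PENK (0.70), TIMP3 (0.66), NR2F2 (0.66), TXNIP (0.60) and HSPA5 (0.59), of 71 other genes. Of these PENK (3.20 ± 0.46) and NR2F2 (1.52 ± 0.33) were called higher, and TIMP3 (-0.87), TXNIP (1.53) and HSPA5 (-1.42) were not called. At equal medians 3 of the 5 stayed, and the correlations were at most 0.52.

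Beside the 3 genes on the 18KB array, with log2 changes of 1.64 to 2.65, the 4 antigen presentation genes on it (TAP1, BOLA, B2M and CD74) were all called higher, with a median of 1.52 and a range of 1.28 to 1.81. The 24 interferon-stimulated genes on it were called higher as well, with a median of 2.56 and a range of 1.11 to 4.85. Of all 86 genes with a symbol on that array 77.9% were called higher. The difference between these lists was not tested.

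Transcripts of trophoblast, the outer layer of the removed conceptus, also moved with pregnancy. Of 10 trophoblast markers 3 were on the 18KB array (TKDP1, TKDP4 and IFNT2), 2 of them called higher, and their summed intensity was 1.44, 8.05, 4.30 and 41.7 in pregnant 316, 426, 447 and 448, against 0.955 to 1.79 in controls. In pregnant 316, whose sum lay within the control range, C4A, C1R and SERPING1 on both arrays were above every control. Within groups, IFNT2 and TKDP1 were among the genes most like SERPING1 on the 18KB array at equal column medians. Stroma markers moved the other way. The 3 of 11 on the 18KB array, the collagens COL1A1, COL1A2 and COL3A1, were called lower, with a summed intensity of 107 to 436 in pregnant animals and 622 to 1415 in controls. On the 18KO array 3 of 6 stroma markers were called lower and NR2F2 higher (sums of 69.5 to 275 in pregnant and 328 to 1086 in control animals), both smooth muscle markers (ACTA2 and MYLK) were called lower (sums of 4.81 to 9.33 in pregnant and 14.7 to 33.3 in control animals), and the epithelial claudins CLDN4 (log2 change 1.96) and CLDN10 (-1.93) were not called (sums of 19.6 to 33.4 in pregnant and 7.16 to 20.8 in control animals). None of the 10 leukocyte and 4 endothelial markers had a symbol on either array (0 on each), so macrophages, a local source of complement, were not measured. The part of these cell types in the complement results was not tested.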

How the data were processed

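Each deposited value is the linear intensity of 1 spot, from 2 spotted cDNA arrays hybridised with radioactively labelled cDNA, per the labels' protocols. The sources used here do not give how the authors subtracted background or scaled columns. Values under 0.01 were set to 0.01 before the log2. Clones were named through the platform's gene table (202 of 1536 clones with 1 symbol on the 18KB and 137 of 1536 on the 18KO array), which can be old. No coordinates are given, since no build is named for the clones.

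The test of each clone was limma's moderated linear model (limma 3.58.1 and statmod 1.5.0 under R 4.3.3), and p-values were adjusted by Benjamini-Hochberg over all 1536 clones of an array. Genes were compared as the mean of their clones, in 1 fit with all clones without a single symbol (1420 and 1471 features). Calls needed an adjusted p under 0.01 with at least a 2-fold change, after the authors' thresholds for SAM per the series' design text. SAM itself and the planned promoter motifs, for which no sequence was at hand, were not run. The SERPING1 change was compared between arrays by an interaction of status and array over 10 shared genes. The labels number the animals, which pairs both arrays of each. Between these arrays, deviations of the shared genes had correlations of 0.35 to 0.93 in 9 animals, but of -0.08 in pregnant 316. Pairs of genes were compared by exact permutation over 210 splits. Fits were tested on simulated data. The plots were made in Python 3.11.15 (matplotlib 3.10.9).

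The genes named are the 3 genes with all clones, other genes of the complement list, the 5 genes most like each by correlation on the same array, and markers and antigen presentation genes by counts. LOC781663, as a neighbour, was named after its values were seen. The 3 genes and all lists were chosen with earlier results of these data known. Alternatives were other column scalings, floors, priors, array weights, thresholds, age as a covariate, other summaries of clones and leaving out each animal. Columns of other samples numbered 0.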

Additional observations from a re-analysis of the deposited data

How the results depend on the processing

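All changes of the 3 genes kept their direction under each of the alternatives run. Calls of C1R and of SERPING1 on the 18KB array were lost at equal column medians (0.88 and 0.81) and after quantile normalisation (0.93 and 0.87), because the change fell under 2-fold, and 1 of 4 clones of the 18KB array was then called (1 under each). No other alternative ended a call of a gene. Leaving out each animal gave 1.53 to 1.83 for C1R, 2.41 to 2.91 for C4A, 1.55 to 1.83 for SERPING1 on the 18KB array and 2.32 to 2.65 on the 18KO array, with 4 of 4 clones and 1 of 1 clone called throughout. It gave 0.74 to 1.07 for C4A minus C1R, 0.83 to 1.23 for C4A minus SERPING1, and -0.02 to 0.20 for C1R minus SERPING1, which turned sign without pregnant 447 (-0.018) and without control 427 (-0.0067). The difference of SERPING1 between arrays was 0.60 to 1.02 without each animal, with and without the block, and the blocked call held without pregnant 447 (0.92) and 448 (1.02) and without control 330 (0.88), 434 (0.89) and 449 (0.86). With the replicate block it was 0.82 (limma adjusted p = 0.0354), by exact permutation of the paired arrays 0.82, and at equal medians 1.98. The equal medians shift all shared genes alike and so do not single out SERPING1. The block was used for this comparison alone, as each fit of a single array holds 1 column per animal. All called clones numbered 264 to 346 on the 18KB and 58 to 114 on the 18KO array without each animal, against 326 and 115 with all. They numbered 598 and 269 at an adjusted p under 0.05 with no fold limit. On the 18KO array they also numbered 175 at equal medians, 249 with 1 factor per animal and 69 with a floor at the 10th percentile. The causes were not tested. All values of the 3 genes lay above the 10th percentile of their array (0.32 and 0.37), so the floor did not enter them.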

Other observations

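SERPING1 belongs to the serpin family, and 2 other serpins had a symbol on the 18KO array. SERPINH1, a collagen chaperone, had a log2 change of -1.46 ± 0.33 (limma adjusted p = 0.0129), and SERPINA14, the uterine serpin, had -1.37 ± 0.88 (limma adjusted p = 0.337). Neither was called, and both were named after their values were seen.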
